A study of Mus musculus with 18 samples.

Results

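The orphan nuclear receptors of the Nr4a family are described here across the 6 treatment groups of a brown adipocyte RNA-seq experiment. The members were the rows of the gene table whose symbol was Nr4a1, Nr4a2 or Nr4a3, that is 3 genes of 20295. All 3 had counts, and all 3 passed the filter on low counts that left 12156 genes for testing. The cells were BAT-LgT, a wild-type mouse line that carries the SV40 large T antigen, grown as brown preadipocytes and then differentiated into adipocytes. On day 7 they received either no inhibitor or inhibitors of the lipases ATGL and HSL for 1 h, and then DMSO (Vehicle), isoproterenol (ISO, 100 nM) or SR-3420 (10 µM per the labels) for 3 h. The groups without inhibitors are called by their stimulus alone, those with inhibitors carry the prefix Lipase Inh., and each of the 6 has 3 samples, which the methods describe as independent experiments. All 18 samples share 1 immortalised line, 1 genotype and 1 time point, so the values describe that line at 3 h after the stimulus. The text of the study states another dose of SR-3420 than the labels, and which one these samples received was not settled here.

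ISO activates β-adrenergic receptors, which raise cAMP, activate protein kinase A and thereby both phosphorylate transcription factors such as CREB and start the breakdown of stored triglycerides by ATGL and HSL. SR-3420 is a ligand of ABHD5, the co-activator of ATGL, and starts lipolysis without a β-adrenergic signal. The design therefore asks which part of a response to ISO is also obtained by lipolysis alone, and which part is lost when the lipases are inhibited.

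The Nr4a genes encode transcription factors that act without a classical ligand, because their ligand-binding pocket is filled by bulky side chains, so that their activity is set largely by how much of the protein is made. Nr4a1 (Nur77), Nr4a2 (Nurr1) and Nr4a3 (Nor1) bind the NBRE element as monomers, and Nr4a1 and Nr4a2 can also bind DNA together with retinoid X receptors. All are known as early response genes that cAMP and CREB switch on in many tissues, brown fat in the cold included, and they have been linked to genes of glucose and fatty acid use and to Ucp1.

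Library totals ranged from 10310447 to 21205032 counts in 17 samples, and the second replicate of Lipase Inh. + SR-3420 stood apart with 4263755 counts, of which 18.3% came from Lars2. Results for the members that use this group are therefore also given without that library. No pair of replicates agreed within counting noise, so each was kept as 1 sample. The label of brown adipocytes was checked against markers in CPM (counts scaled by TMM library size). Of 13 brown adipocyte markers, 11 to 12 were over 1 CPM in each group, with summed levels of 6540 to 11079 CPM per sample. That list also holds genes of adipocytes in general, such as Pparg, so its sum does not by itself show brown identity. Ucp1, the uncoupling protein of brown fat, was at 2.69 CPM with Vehicle. The 8 preadipocyte markers summed to 76.2 to 126 CPM and the 6 macrophage markers to 2.34 to 6.30 CPM, with 1 macrophage marker over 1 CPM. Endothelial markers summed to at most 0.631 CPM and muscle markers to at most 1.53 CPM in any sample. In such bulk RNA, fewer responding cells and less RNA per cell cannot be told apart.

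In mm9, the build of the table, Nr4a1 lies on the plus strand at chr15:101097277-101105225, Nr4a2 on the minus strand at chr2:56959637-56976414 and Nr4a3 on the plus strand at chr4:48064120-48096224. The counted length was 2476 bases for Nr4a1, 3026 for Nr4a2 and 1884 for Nr4a3. For Nr4a3 this equals the coding length, with stop codon, of the GENCODE transcript Nr4a3-001, whose other 3836 exon bases were thus not part of the counted length. The RefSeq start site of Nr4a3 lies 5943 bases before the start of the counted gene. Levels of different members are compared below per kb of counted length, except in the log2 ratios of counts. Those ratios are not corrected for length and are read for their changes between groups.

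The 250 bases before each RefSeq start site are shown because cAMP acts on gene expression largely through the cAMP response element (CRE), TGACGTCA, and its core TGACG. RefSeq gives these windows in build GRCm38.p6, and each was found exactly once in the mm9 chromosome. They are at chr15:101097027-101097276 for Nr4a1, at chr2:56976415-56976664 on the minus strand for Nr4a2, and at chr4:48057927-48058176 for Nr4a3. Capitals mark TGACG or its reverse complement CGTCA, and each sequence runs 5′ to 3′ along the gene.
Nr4a1: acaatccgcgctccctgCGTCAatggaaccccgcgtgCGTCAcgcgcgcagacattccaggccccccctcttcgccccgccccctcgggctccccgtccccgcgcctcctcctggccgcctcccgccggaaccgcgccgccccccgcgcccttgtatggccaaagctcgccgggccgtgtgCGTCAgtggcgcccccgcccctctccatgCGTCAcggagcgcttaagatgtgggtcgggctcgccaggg
Nr4a2: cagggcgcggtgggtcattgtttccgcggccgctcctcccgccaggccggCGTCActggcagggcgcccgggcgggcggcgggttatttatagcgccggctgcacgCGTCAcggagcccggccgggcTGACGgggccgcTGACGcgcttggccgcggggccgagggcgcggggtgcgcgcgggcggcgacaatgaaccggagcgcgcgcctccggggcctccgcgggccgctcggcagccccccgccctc
Nr4a3: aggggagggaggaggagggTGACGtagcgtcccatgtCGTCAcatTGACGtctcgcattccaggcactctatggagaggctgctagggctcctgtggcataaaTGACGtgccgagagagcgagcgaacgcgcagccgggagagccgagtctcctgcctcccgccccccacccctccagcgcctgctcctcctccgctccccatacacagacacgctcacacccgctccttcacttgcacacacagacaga

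Every one of the 3 promoters held 4 matches to TGACG. The search covered both strands of 300 bases, from 250 before to 50 after the start. Of 32851 RefSeq mouse promoter windows of that length, 20.8% held at least 1 match and 76, or 0.231%, held at least 4. In Nr4a1 all 4 matches were on the reverse strand, with first bases at positions −233, −213, −69 and −40 from the start. In Nr4a2 they began at −200 and −144 on the reverse and at −123 and −111 on the forward strand. In Nr4a3 they began at −231, −205 and −147 on the forward and at −213 on the reverse strand. None of the 3 windows held the full CRE (found in 1.79% of all windows) or the NBRE, AAAGGTCA (1.51%). A TATAAA was found once, on the reverse strand in Nr4a2, and in 13.6% of all windows. The windows were rich in G and C, at 72.3% for Nr4a1, 81.7% for Nr4a2 and 64.7% for Nr4a3. A match describes letters in the window and was not tested as a binding site.

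**Figure D1:**
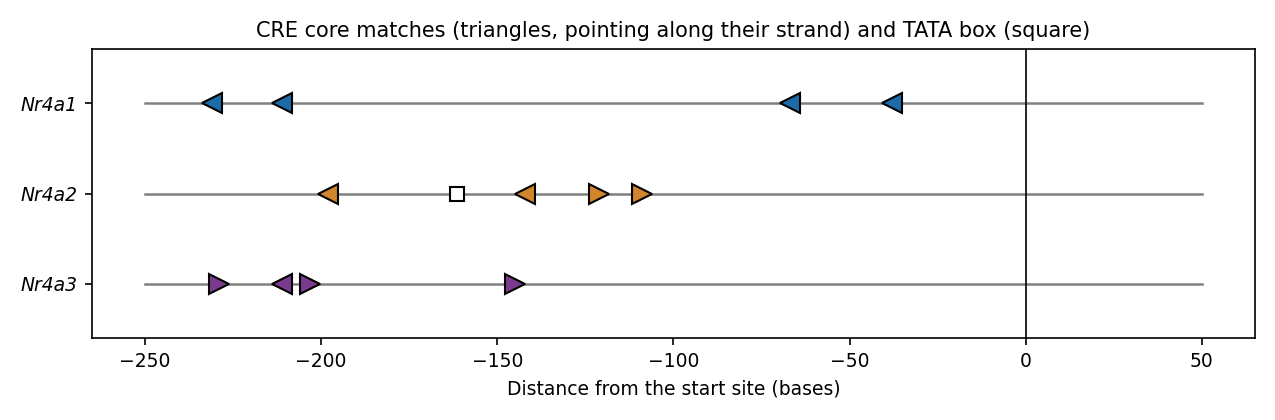
Position of matches to TGACG, the core of the CRE, in the windows from 250 bases before to 50 bases after the start site of each Nr4a gene, with triangles pointing along the strand of the match and a square for TATAAA. Each window holds 4 triangles, all before the start.

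Nr4a1 was the most abundant member in Vehicle cells and rose with both stimuli. Its counts in the 3 replicates were 230, 177 and 153 with Vehicle, 5984, 5703 and 3312 with ISO, and 1479, 1461 and 2314 with SR-3420. With inhibitors they were 183, 145 and 260 with Vehicle, 726, 772 and 1360 with ISO, and 329, 93 and 449 with SR-3420. Scaled to library size, the level was 13.9 ± 0.554 CPM with Vehicle, 414 ± 65.5 with ISO and 115 ± 6.36 with SR-3420 (SD, n = 3). Under inhibitors it was 13.4 ± 1.54 CPM with Vehicle, 68.3 ± 2.70 with ISO and 27.7 ± 2.55 with SR-3420 (SD, n = 3), where the small library had 24.8 and the others 29.6 and 28.6. The order from high to low was ISO, SR-3420, Lipase Inh. + ISO, Lipase Inh. + SR-3420, and then the 2 vehicle groups, which were the only neighbours in that order whose samples overlapped. Both stimuli thus gave lower Nr4a1 with inhibitors than without, and ISO with inhibitors gave less than SR-3420 without.

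Nr4a2 rose with ISO only. It had 101, 63 and 53 counts with Vehicle, 252, 195 and 200 with ISO, and 71, 53 and 99 with SR-3420. With inhibitors it had 81, 66 and 91 counts with Vehicle, 311, 231 and 511 with ISO, and 62, 23 and 113 with SR-3420. The 2 ISO groups stood above all others, at 18.3 ± 2.42 CPM without and 25.0 ± 3.51 CPM with inhibitors (SD, n = 3), and did not overlap each other, although the highest sample without (21.0 CPM) and the lowest with inhibitors (21.1 CPM) nearly met. The other 4 groups had means between 4.88 and 6.30 CPM, and each overlapped its neighbour in the order.

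Nr4a3 was close to the detection limit without ISO and reached over 1000 counts in every ISO sample. It had 5, 2 and 0 counts with Vehicle, 1783, 1431 and 1072 with ISO, and 14, 25 and 13 with SR-3420. With inhibitors it had 3, 5 and 3 counts with Vehicle, 1387, 1083 and 2466 with ISO, and 3, 0 and 3 with SR-3420. The 0 in the third Vehicle sample allows up to 0.265 CPM, and the 0 in the small Lipase Inh. + SR-3420 library allows up to 0.799 CPM (3 counts, counting error only). The ISO groups, at 119 ± 5.68 CPM without and 116 ± 14.9 CPM with inhibitors (SD, n = 3), overlapped each other. SR-3420 followed at 1.23 ± 0.678 CPM, with its lowest sample (0.681 CPM) above every measured value of the remaining 3 groups, though not above what the 0 in the small library allows. Those 3 groups overlapped one another at means of 0.154 to 0.268 CPM. Since Nr4a3 passed the filter on low counts through the ISO libraries, its values without ISO rest on few counts.

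**Figure D2:**
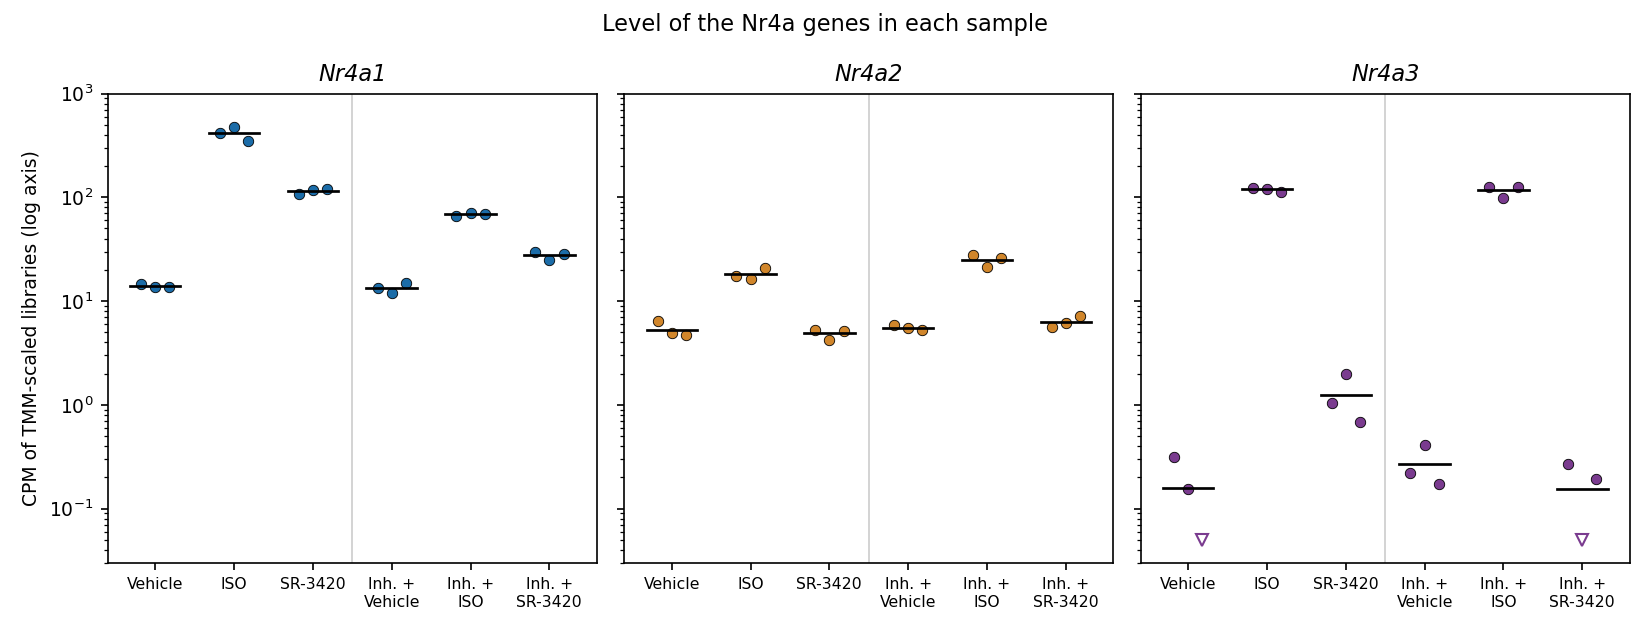
CPM of TMM-scaled libraries on a log axis for each Nr4a gene in the 6 groups, with 1 point per sample, the group mean as a line and an open triangle for a sample with 0 counts, which a log axis cannot place. Nr4a1 is high with ISO and SR-3420 and lower in both with inhibitors, while the ISO samples of Nr4a3 lie near 119 and 116 CPM without and with inhibitors.

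ISO was compared with Vehicle to ask which members respond to β-adrenergic activation. All 3 of the 3 members were higher by edgeR's quasi-likelihood test at a Benjamini-Hochberg adjusted p of at most 0.05 and a log2 fold change of at least 1, where 5.03% of all tested genes were. Nr4a3 passed the filter on low counts only through its ISO libraries, so this count is not read against that share. Nr4a1 rose 29.7-fold (log2 fold change 4.89 ± 0.11 SE, adjusted p = 9.94e-19) and Nr4a2 3.39-fold (1.76 ± 0.15, adjusted p = 3.52e-09). Nr4a3 had a log2 fold change of 9.34 ± 0.26 (adjusted p = 3.19e-17), the highest of the 12156 genes. Pooled over samples, its 4286 counts with ISO against 7 with Vehicle gave a ratio of 685 (exact 95% interval of counting error 332 to 1705). This fold and its rank rest on the 7 Vehicle counts, so the rank is not read against the other genes. With a larger prior count of 2 the fitted log2 fold change was 8.51. Scaling by total counts alone lowered the median gene by 0.31 on the log2 scale and turned the split of all called genes from 612 higher and 495 lower to 339 higher and 1191 lower, while the members remained higher, at 4.58 for Nr4a1, 1.46 for Nr4a2 and 9.04 for Nr4a3.

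SR-3420 was compared with Vehicle to ask which members respond to lipolysis without a β-adrenergic signal. Here 2 of the 3 members were higher, where 3.97% of all tested genes were. Of these, Nr4a3 was tested only because its ISO libraries carried it past the filter on low counts, so the count is not read against that share. Nr4a1 rose 8.28-fold (log2 fold change 3.05 ± 0.11 SE, adjusted p = 3.70e-15). Nr4a3 rose by 2.67 ± 0.57 (adjusted p = 0.000476), from 7 to 52 pooled counts, a ratio of 6.58 (exact 95% interval of counting error 2.98 to 17.2). Nr4a2 did not pass the test, at −0.13 (95% interval −0.48 to 0.23, adjusted p = 0.554).

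ISO gave more of every member than SR-3420 did at the doses used. All 3 of 3 were higher with ISO than with SR-3420, where 1.23% of tested genes were. The log2 fold change was 1.84 ± 0.09 for Nr4a1 (adjusted p = 2.20e-12), 1.89 ± 0.15 for Nr4a2 (adjusted p = 7.02e-09) and 6.67 ± 0.20 for Nr4a3 (adjusted p = 3.24e-16). With inhibitors the same comparison called all 3 of 3 higher, where 5.34% of tested genes were, at 1.28 ± 0.11 for Nr4a1, 1.97 ± 0.16 for Nr4a2 and 9.15 ± 0.28 for Nr4a3. Without the small library these were 1.23, 1.95 and 8.97. Because Nr4a3 was tested only through its ISO libraries, neither count of 3 is read against its share. The 2 agents were given at 1 dose each, so that no dose response stands behind this comparison.

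Inhibitors without a stimulus moved no member past the threshold. By edgeR 0 of 3 were higher and 0 of 3 lower, where 0.00823% of tested genes were higher and 0.0411% lower, and 0 of 3 had an unadjusted p under 0.05. The share of all tested genes at that unadjusted p was not computed. The log2 fold change was −0.043 for Nr4a1 (95% interval −0.30 to 0.21), 0.042 for Nr4a2 (−0.31 to 0.39) and 0.53 for Nr4a3 (−1.14 to 2.19). DESeq2 called neither Nr4a1 nor Nr4a3 and gave no adjusted p for Nr4a2. The value of Nr4a3 rests on 7 and 11 pooled counts.

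With inhibitors present, ISO still raised all 3 of 3 members over Lipase Inh. + Vehicle, where 5.43% of tested genes were higher. This count is not read against that share either, as Nr4a3 was tested only through its ISO libraries. Nr4a1 rose 5.05-fold (log2 fold change 2.34 ± 0.11 SE, adjusted p = 8.41e-14) and Nr4a2 4.53-fold (2.18 ± 0.15, adjusted p = 4.60e-11). Nr4a3 again had the highest log2 fold change of the tested genes, 8.78 ± 0.25 (adjusted p = 2.69e-17), with a pooled ratio of 464 (exact 95% interval of counting error 259 to 930). This fold and its rank rest on 11 pooled Lipase Inh. + Vehicle counts, so the rank is not read against the other genes. The ISO effect on Nr4a1 was smaller with inhibitors, and this difference was tested as an interaction term. It was −2.56 ± 0.15 (adjusted p = 5.05e-11), a direction that passed the same threshold in 16.6% of tested genes. Set directly against ISO, Lipase Inh. + ISO had 6.06-fold less Nr4a1 (log2 fold change −2.60 ± 0.10, adjusted p = 5.85e-15), and 1 of 3 members was called lower, where 4.29% of genes were.

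The other two did not follow Nr4a1. The interaction was 0.42 for Nr4a2 (95% interval −0.031 to 0.87, adjusted p = 0.149) and −0.56 for Nr4a3 (−2.24 to 1.13, adjusted p = 0.646). Against ISO directly, Lipase Inh. + ISO had a log2 fold change of 0.46 ± 0.13 for Nr4a2 (adjusted p = 0.0079), below the fold threshold, and of −0.030 for Nr4a3 (95% interval −0.28 to 0.22, adjusted p = 0.868). That last interval leaves out a drop of Nr4a3 of the size seen for Nr4a1. The Nr4a3 interaction also rests on the few counts of the vehicle groups, which the direct comparison of the ISO groups does not use.

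With inhibitors present, SR-3420 left 1 of 3 members above Lipase Inh. + Vehicle, where 0.214% of tested genes were higher. Nr4a1 rose 2.08-fold (log2 fold change 1.06 ± 0.12 SE, adjusted p = 7.73e-06), and 1.104 without the small library. It fell just under the fold threshold of 1, with adjusted p-values below 0.05, with total counts alone (0.97), with libraries thinned to equal depth (0.95) and without the second Lipase Inh. + Vehicle sample (0.99). Nr4a2 was at 0.21 (95% interval −0.15 to 0.57, adjusted p = 0.617) and Nr4a3 at −0.36 (−2.12 to 1.39, adjusted p = 0.883), from 6 and 11 pooled counts. Without the small library these were 0.23 and −0.18.

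The SR-3420 effect on Nr4a1 was also smaller with inhibitors, with an interaction of −1.99 ± 0.16 (adjusted p = 1.42e-08), a direction that passed the threshold in 14.8% of genes, and −1.95 without the small library. Nr4a3 had an interaction of −3.03 ± 1.05 (adjusted p = 0.0359), which is not stable. Its adjusted p rose above 0.05 when any of 7 of the 18 samples was left out, namely Vehicle 2 or 3, SR-3420 replicate 2, Lipase Inh. + Vehicle 1 or 2, and Lipase Inh. + SR-3420 replicate 2 or 3, and it was −2.85 (adjusted p = 0.0525) without the small library. Set directly against SR-3420, Lipase Inh. + SR-3420 was lower in 2 of 3 members, where 2.57% of genes were. Nr4a3 was among them and was tested only through its ISO libraries, so the count is not read against that share. Nr4a1 fell by 2.04 on the log2 scale (adjusted p = 3.37e-12) and Nr4a3 by 2.51 (adjusted p = 0.00217), and without the small library the fitted values were −1.99 and −2.32. Nr4a2 was at 0.38 (95% interval 0.017 to 0.75, adjusted p = 0.0899), and at 0.40 without the small library.

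**Figure D3:**
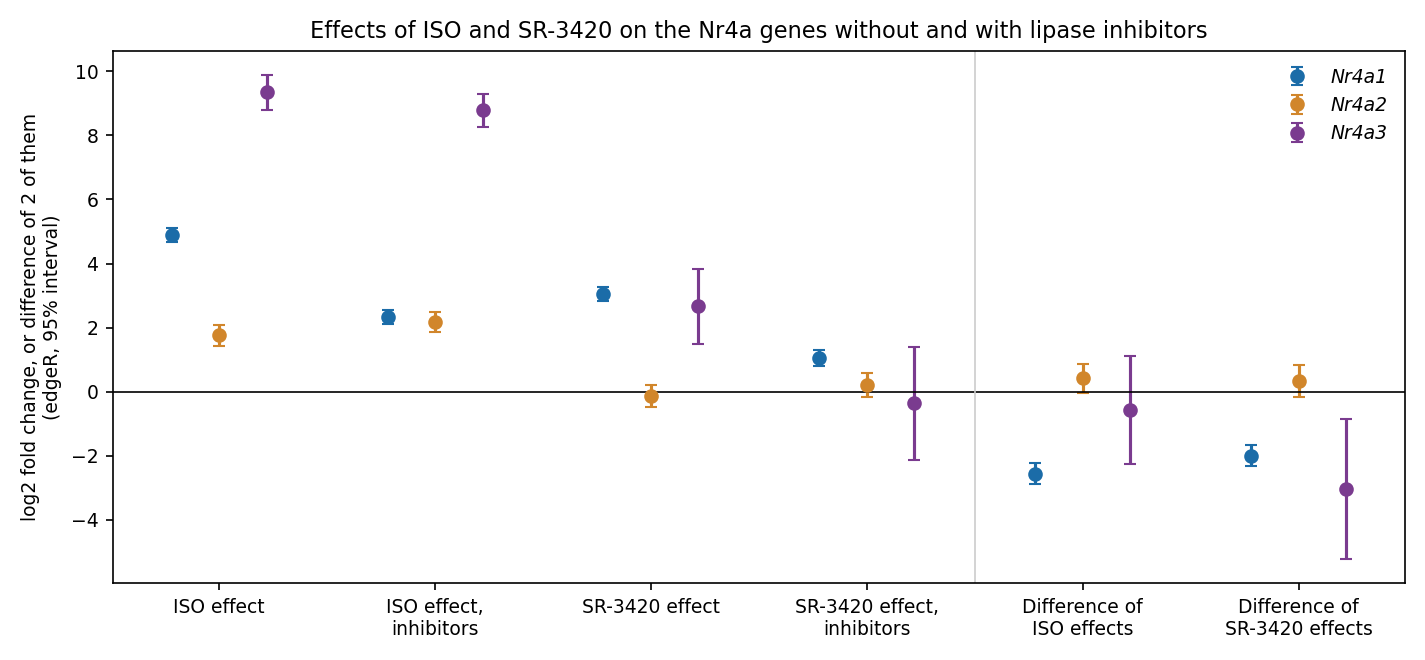
Fitted log2 fold changes with 95% intervals of the 3 Nr4a genes for ISO and SR-3420 without and with inhibitors, and, right of the line, the difference between each stimulus's effect in inhibited and in uninhibited cells. For Nr4a1 both differences lie below 0 (−2.56 and −1.99), whereas the intervals of Nr4a2 and of the ISO difference of Nr4a3 include 0.

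Because the members moved by different amounts, the make-up of the family changed with treatment. Per kb of counted length, Nr4a1 made up a mean of 75.5% of the summed family level with Vehicle, Nr4a2 23.4% and Nr4a3 1.07%. ISO gave 70.5% Nr4a1, 2.61% Nr4a2 and 26.9% Nr4a3, while SR-3420 gave 95.4% Nr4a1, 3.30% Nr4a2 and 1.34% Nr4a3. Lipase Inh. + Vehicle resembled Vehicle, at 73.2%, 24.8% and 1.97%. Lipase Inh. + ISO was the only group in which Nr4a3 was the largest share, at 63.1%, with 28.5% Nr4a1 and 8.45% Nr4a2. Lipase Inh. + SR-3420 had 83.7% Nr4a1, 15.7% Nr4a2 and 0.584% Nr4a3, and 84.04%, 15.1% and 0.875% without the small library. These shares take 1 count per kb as equal between genes, and the short counted length of Nr4a3 enters them.

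**Figure D4:**
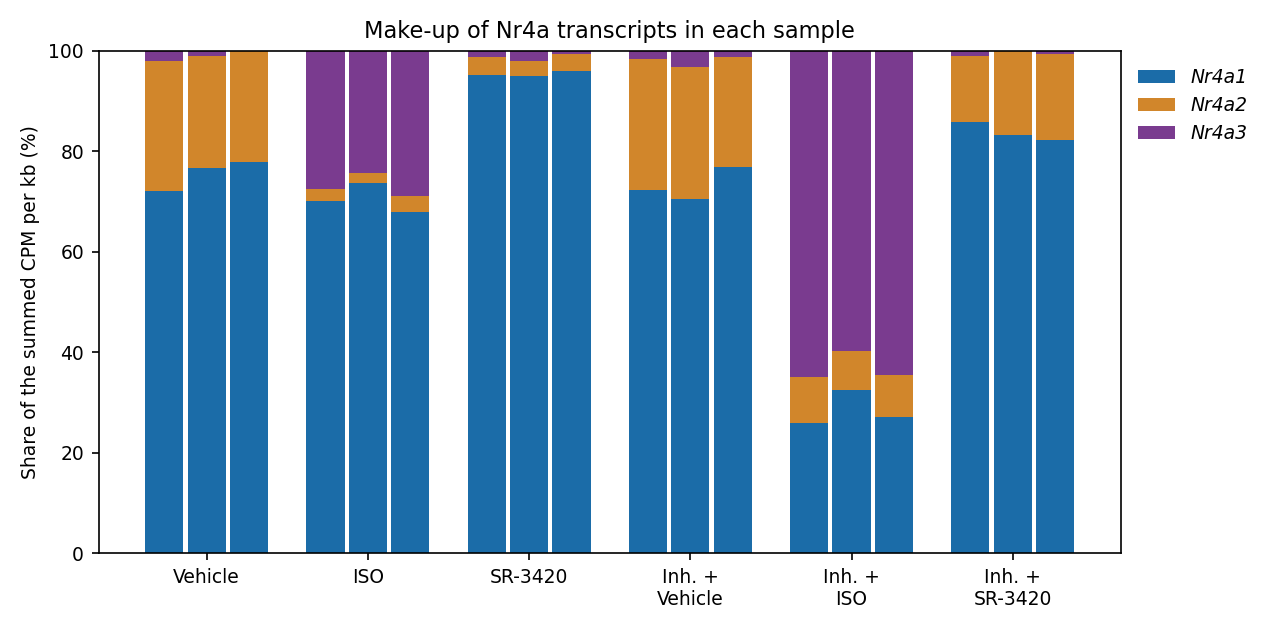
Share of each Nr4a gene in the summed CPM per kb of counted length of the family, with 1 bar per sample in the order of replicates. Nr4a3 takes 59.7% to 65.02% of the bar in the Lipase Inh. + ISO samples and 24.3% to 28.8% in the ISO samples.

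Whether the members respond to a different degree was tested on the log2 ratio of their counts in each sample, by an exact two-sided permutation test of stimulus against vehicle within cells without and with inhibitors. Each count had 0.5 added before the ratio was taken. There were 6 such tests, each with 400 arrangements, a smallest possible p of 0.005 and 12 samples. These values are means of the changes without and with inhibitors, which are therefore also given apart, although 3 against 3 samples cannot go below an exact p of 0.1. ISO raised Nr4a3 over Nr4a1 by 5.56 on the log2 scale (4.81 without and 6.31 with inhibitors) and over Nr4a2 by 7.20 (7.91 and 6.50; both exact p = 0.005, adjusted over the 6 tests 0.01). In every ratio with Nr4a3 the vehicle side rests on few counts of it, 5, 2 and 0 with Vehicle and 3, 5 and 3 with Lipase Inh. + Vehicle. The sizes of these changes are therefore uncertain, and the 0 enters only as the added 0.5. For Nr4a1 over Nr4a2 the ISO mean of 1.64 (exact p = 0.025, adjusted 0.0375) joined a change of 3.10 without inhibitors (exact p = 0.1) and one of 0.19 with them (exact p = 0.5), so that it describes neither. For SR-3420 the mean of 2.01 for Nr4a1 over Nr4a2 (exact p = 0.005, adjusted 0.01) joined 3.17 without and 0.86 with inhibitors, both with an exact p of 0.1. The SR-3420 means for Nr4a3 over Nr4a1 (−0.76, exact p = 0.21) and over Nr4a2 (1.25, exact p = 0.16, adjusted 0.192) did not pass. The former joined −0.045 without inhibitors (exact p = 1.0) and −1.48 with them (exact p = 0.1). The latter joined changes of opposite sign, 3.12 without inhibitors (exact p = 0.1) and −0.63 with them (exact p = 0.4). Without the small library the SR-3420 means were 2.04, −0.64 and 1.41, with the same calls. The ISO result for Nr4a1 over Nr4a2 was lost without the second Lipase Inh. + ISO sample (1.57, adjusted exact p = 0.06), and the SR-3420 result for Nr4a3 over Nr4a1 passed with a prior count of 2 (−0.93, adjusted exact p = 0.036) or without the third Vehicle sample (−1.18, adjusted exact p = 0.03).

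A comparison added after the data were seen set these ratios with inhibitors against those without. The mean log2 ratio of Nr4a3 to Nr4a1 counts was −1.79 with ISO and 0.76 with Lipase Inh. + ISO, a rise of 2.55 with no overlap of samples. The ratio of Nr4a3 to Nr4a2 went from 2.70 to 2.22, a change of −0.49, and that of Nr4a1 to Nr4a2 from 4.49 to 1.46, a change of −3.04. Each of these had an exact permutation p of 0.1, the smallest that 3 against 3 samples allow, so none could pass a threshold of 0.05.

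The genes whose pattern was most like each member were taken by Pearson correlation of log2 CPM over the 18 samples, among 11045 genes with sufficient level. The samples share the 6 treatments, so the values are a description and carry no p. For Nr4a1 they were Tiparp (r = 0.989), Elovl3 (0.988), Picalm (0.986), Agpat9 (0.985) and 3110043O21Rik (0.984). Elovl3, an elongase of very long fatty acids that marks active brown fat, and Agpat9, an acyltransferase of triglyceride synthesis, are genes of lipid metabolism, and Tiparp encodes a mono-ADP-ribosyltransferase. Elovl3 rose with ISO by 3.66 on the log2 scale and with SR-3420 by 2.53, against 1.85 for ISO with inhibitors, all past the threshold.

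For Nr4a2 the most alike were Mpc1 (r = 0.981), a subunit of the mitochondrial pyruvate carrier, Atp6v1b2 (0.976), a subunit of the vacuolar proton pump, Usp33 (0.967), Tmem60 (0.965) and Alpl (0.964), alkaline phosphatase. ISO raised Alpl by 1.96 without and 2.79 with inhibitors, while SR-3420 gave 0.12 (adjusted p = 0.278). For Nr4a3 they were Mapkapk2 (r = 0.989), a kinase downstream of p38, Tpcn2 (0.988), Tgm2 (0.988), Adcy3 (0.986), an adenylyl cyclase, and Ucp1 (0.984), the uncoupling protein of brown fat. ISO raised Mapkapk2 by 2.01 without and 2.22 with inhibitors, and Ucp1 by 7.08 and 8.20. Among the members themselves, Nr4a2 and Nr4a3 were most alike (r = 0.932), then Nr4a1 and Nr4a3 (0.773) and Nr4a1 and Nr4a2 (0.580). Without the small library these were 0.940, 0.770 and 0.573, and of the 5 genes most like each member 4 were shared for Nr4a1, 4 for Nr4a2 and 5 for Nr4a3. Few of these neighbours remain under other measures of likeness, as given in the closing section.

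Of the retinoid X receptors, with which Nr4a1 and Nr4a2 can pair, Rxra fell with ISO, both without and with inhibitors. Of the 3 genes tested, 1 was lower with ISO, where 4.07% of all tested genes were, namely Rxra at −1.17 ± 0.07 (adjusted p = 1.70e-11), from 384 ± 23.0 to 171 ± 4.92 CPM (SD, n = 3). With inhibitors Rxra was again the 1 gene of 3 called lower with ISO, where 7.63% of tested genes were, at −1.48, from 355 ± 9.30 to 127 ± 3.56 CPM. SR-3420 gave −0.91 ± 0.07 for Rxra, under the fold threshold, and 0.048 under inhibitors (adjusted p = 0.803). Rxrb stood at −0.55 and Rxrg at 0.59 with ISO, neither past the fold threshold.

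Among 31 tested genes of the cAMP and CREB pathway, which acts upstream of the Nr4a genes, ISO left 7 higher and 1 lower, where 5.03% of all tested genes were higher and 4.07% lower, at a median log2 fold change of 0.32 against −0.021 over all tested genes. With SR-3420, 4 were higher (Adcy3, Pde4d, Sik1 and Crtc2) and 1 lower, where 3.97% of all tested genes were higher and 2.37% lower. The gene lower with either agent was Adrb3, the main β-adrenergic receptor of mouse brown fat, at −1.60 with ISO and −1.39 with SR-3420. With ISO under inhibitors 8 were higher and 3 lower, where 5.43% of all genes were higher and 7.63% lower, and Adrb3 (−3.33) and Adcy5 (−1.12) were among the lower. The highest with ISO was Pde4d (4.24 ± 0.10), a phosphodiesterase that breaks down cAMP, followed by Adcy3 (4.195 ± 0.13), Sik1 (3.01 ± 0.13), a kinase that holds CREB co-activators outside the nucleus, and Pde4b (1.65 ± 0.09). For Pde4d and Adcy3, ISO under inhibitors gave 4.33 and 4.52, and for Sik1 and Pde4b 1.43 and 0.60. In Lipase Inh. + SR-3420, 0 of 31 were called higher by edgeR, where 0.214% of all genes were. Without the small library edgeR also called 0 higher, and DESeq2 called 0 with it. At an unadjusted p under 0.05, 10 were higher with or without that library. The share of all genes at an unadjusted p was not computed, here or for the lists below.

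Other early response genes were examined to place the members among genes of their kind. This list, like the other gene lists here, was chosen with earlier results of these data known. List counts beside the shares of all genes are therefore a description and not a test. With ISO 17 of 23 tested were higher and 1 lower (median log2 fold change 1.67), where 5.03% of all genes were higher and 4.07% lower. With SR-3420 19 were higher and 1 lower, with a median of 2.08, where 3.97% and 2.37% of all genes were. The gene lower with either was Rgs2, a regulator of G protein signalling, at −1.49 and −2.10. The highest with ISO were Atf3 (5.00 ± 0.16), a transcription factor of stress responses, Fosl1 (4.23 ± 0.18), of the AP-1 family, Ppargc1a (3.84 ± 0.09), the co-activator of mitochondrial biogenesis, and Sik1. With inhibitors, 8 were higher with ISO, with a median of 0.58, where 5.43% of all genes were. With SR-3420 under inhibitors 0 of 23 were higher by edgeR, with or without the small library, and 0 by DESeq2, where 0.214% of all genes were, and 7 were higher at an unadjusted p under 0.05, with or without it. The interaction was lower for 16 of 23 genes with ISO and for 21 of 23 with SR-3420 (18 without the small library), where 16.6% and 14.8% of all genes were, at medians of −1.19 and −1.92 against 0.011 over all tested genes in each. Nr4a1, at −2.56 and −1.99, lay on the same side as these, and Nr4a2 and the ISO interaction of Nr4a3 did not pass the test. The ISO interaction was higher for 2 genes, Rgs2 (0.95, adjusted p = 0.000157) and Crem, which encodes cAMP-responsive activators and repressors, at 1.61 ± 0.11 without and 2.49 ± 0.11 with inhibitors (interaction 0.88, adjusted p = 0.000106). Of 19 of these genes with a promoter window, 15 held at least 1 TGACG and 0 held 4 or more. The full CRE, absent from the Nr4a windows, was held by 4 of the 19. Of all single windows, 20.8% held at least 1 TGACG, 0.231% at least 4 and 1.79% the full CRE. A gene with several windows was counted here by its highest, so its counts and these shares are not alike.

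**Figure D5:**
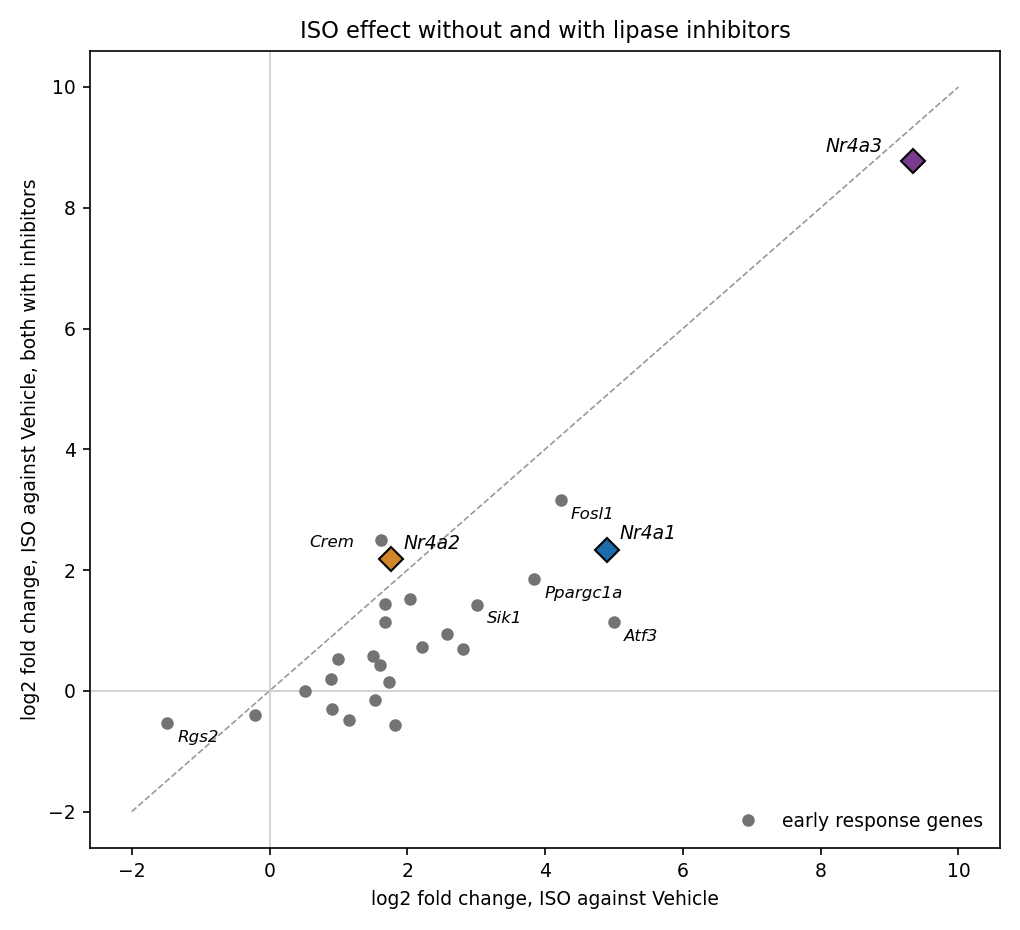
Log2 fold change of ISO over vehicle without inhibitors (horizontal) and with inhibitors (vertical) for 23 early response genes (circles) and the 3 Nr4a genes (diamonds), with equal effects on the dashed line. Nr4a1 (4.89 and 2.34) lies below the line with most of the circles, whereas Nr4a2 (1.76 and 2.18) and Crem (1.61 and 2.49) lie above it and Nr4a3 (9.34 and 8.78) just below it.

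Genes that have been described as targets of Nr4a factors, mostly in muscle, liver, nerve or gland cells, were taken as a further list of 18, of which 12 were tested. Ucp1, a gene of brown fat, was part of that list. With ISO 4 of the 12 were higher and 0 lower, with a median of 0.72, where 5.03% of all genes were higher. With SR-3420 3 were higher (Ucp1, Pdk4 and Pygm), where 3.97% of all genes were. With ISO under inhibitors 3 were higher (Ucp1, Ucp3 and Gys1) and 1 lower (Prkag3), with a median of −0.22, where 5.43% of all genes were higher and 7.63% lower. Scaling by total counts alone left 2 of 12 higher with ISO and 1 of 12 with ISO under inhibitors, where 339 and 439 of all 12156 tested genes were. Ucp1 went from 2.69 ± 0.430 CPM with Vehicle to 364 ± 109 CPM with ISO and 675 ± 118 CPM with Lipase Inh. + ISO (SD, n = 3). Pdk4, a kinase that shuts off pyruvate oxidation, was at 2.39 ± 0.10 with ISO, 3.08 ± 0.10 with SR-3420 and −0.32 ± 0.09 with ISO under inhibitors, where Nr4a1 was at 4.89, 3.05 and 2.34. Ppargc1b (1.17 ± 0.13) and Lpin1 (1.097 ± 0.10) were the other genes called higher with ISO, and Pygm, at 1.57 ± 0.78, was not called. In Lipase Inh. + SR-3420 1 of 12 was higher, where 0.214% of all genes were, namely Ucp3 at 1.06 ± 0.22. By edgeR 0 of 12 were higher without the small library. At an unadjusted p under 0.05, 5 were higher with and 4 without that library, and DESeq2 called 1 with it. Of the 14 genes of this list with a promoter window, 0 held the NBRE, which was found in 1.51% of all windows. Sites outside these 300 bases were not searched, so this count cannot decide whether the genes are direct targets.

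Among 30 tested genes for other nuclear receptors, the retinoid X receptors included, 3 were higher and 4 lower with ISO, where 5.03% and 4.07% of all genes were. With SR-3420 2 were higher and 2 lower, where 3.97% and 2.37% of all genes were, and with ISO under inhibitors 3 were higher and 9 lower, where 5.43% and 7.63% were. Those higher with ISO were Vdr, the vitamin D receptor (3.02 ± 0.09), Rora (1.44 ± 0.13) and Ppara (1.295 ± 0.15), and among those lower were Rxra, Rarg (−1.16) and Thra (−1.12). With SR-3420 the calls were Ppara (1.498) and Nr1d1 (1.05) higher and Rarg (−1.01) and Thra (−1.01) lower. For Vdr the ISO effect was 6.11 ± 0.09 with inhibitors and SR-3420 gave −0.019 (adjusted p = 0.955). The others called higher with ISO under inhibitors were Esrra (1.32) and Rorb (1.0998). For Rora and Ppara, ISO under inhibitors gave −0.84 and −0.63. In Lipase Inh. + SR-3420, 0 of 30 were called higher by edgeR, where 0.214% of all genes were. Without the small library edgeR also called 0 higher, and DESeq2 called 0 with it. At an unadjusted p under 0.05, 6 were higher with that library and 7 without it. Without inhibitors, none of these 30 genes reached the ISO log2 fold change of Nr4a1 or Nr4a3.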

How the data were processed

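RNA-seq was performed on 18 samples of differentiated BAT-LgT cells. Per the study's methods, the authors prepared TruSeq libraries, mapped reads to mm9 with STAR 2.4.2a, used HOMER to keep 1 read per position and length, and obtained gene counts with iRNA-seq. The deposited table has raw counts per gene and sample, together with each gene's span and counted length (other) in bases. Whether counting used strand is not stated. The read limit can lower the counts of short, highly expressed genes, and its part in the values was not tested. The densest value of a member was 2.42 counts per counted base, for Nr4a1 in an ISO library, where 362 genes were denser. No gene of the table overlaps a member's span.

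Samples were grouped by title. Counts were filtered (filterByExpr, minimum count 10 and minimum total 15), TMM-scaled and tested in 1 fit of all groups by the quasi-likelihood test of edgeR 4.0.16 (R 4.3.3), without a replicate block, with Benjamini-Hochberg adjustment over 12156 genes. A change was called where the adjusted p did not exceed 0.05 and the log2 fold change was at least 1 in size, and an interaction at the former alone. Fold changes used a prior count of 0.125, likeness a prior count of 2 in log2 CPM. The ratios of members used the added count that is given with them. The script was tested on simulated counts. The members and gene lists were chosen with earlier results of these data known. Named genes were the members, the 4 genes of each list with the largest absolute change with ISO, the 5 most alike to each member, and, where useful, any listed target or retinoid X receptor. Other genes behind small counts (such as Adrb3, Rgs2, Crem, Thra and Rarg) were named after their values were seen. Some genes of the lists are counted but not reported here by name. Sik1, Crem, Ppargc1a, Ucp1, Adcy3 and the retinoid X receptors fall under more than 1 list or rule. Alternatives were DESeq2 1.42.0, other scaling, filters, prior count, sample sets and depth. The ratios of members within cells without and with inhibitors, and the list counts, shares and likeness without the small library, were chosen after seeing the data. Counting intervals and floors cover counting error only. Promoter windows came from RefSeq, and all 3 members matched by symbol.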

Additional observations from a re-analysis of the deposited data

Results flagged for a closer look

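For 3 results the effect of a stimulus differed between cells without and with inhibitors by the test of the difference itself, edgeR's interaction term. The ISO effect on Nr4a1 was 4.89 without and 2.34 with inhibitors on the log2 scale, a difference of −2.56 (adjusted p = 5.05e-11, and between −2.66 and −2.43 when single samples were left out). The SR-3420 effect on Nr4a1 was 3.05 without and 1.06 with inhibitors, a difference of −1.99 (adjusted p = 1.42e-08, and between −2.06 and −1.90 when single samples were left out). The SR-3420 effect on Nr4a3 was 2.67 without and −0.36 with inhibitors, a difference of −3.03 (adjusted p = 0.0359). This last value rests on 52 pooled counts with SR-3420 and on 7, 11 and 6 in the other groups, and the adjusted p ranged from 0.0144 to 0.115 when single samples were left out. Nr4a3 passed the filter on low counts only through its ISO libraries, which this difference does not use. Its call is therefore not read as a stable result.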

How the results depend on the processing

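Over the members, 283 of 291 values under other tools, scalings, filters, depths, prior counts and sample sets, and 579 of 594 with single samples left out, kept their direction and their side of the threshold. The Nr4a1 effect of SR-3420 under inhibitors went to 0.97 with total counts alone and 0.95 after thinning (0.99 to 1.15 with single samples left out), under the fold threshold. The SR-3420 interaction of Nr4a3 ranged from −4.03 to −2.55 with single samples left out and lost its call in 7 of 18 such fits. Signs also turned for results that were called in neither fit. After thinning these were Nr4a2 with SR-3420 (0.066, and −0.21 to 0.041 with single samples left out), Nr4a1 with inhibitors alone (0.081, and −0.14 to 0.025), and Nr4a2 in Lipase Inh. + SR-3420 against Lipase Inh. + Vehicle (−0.12), against SR-3420 (−0.067) and in the SR-3420 interaction (−0.19). With total counts alone it was Nr4a3 in Lipase Inh. + ISO against ISO (0.030, and −0.085 to 0.069 with single samples left out). With single samples left out they were also Nr4a2 with inhibitors alone (−0.044 to 0.21) and Nr4a3 in Lipase Inh. + SR-3420 against Lipase Inh. + Vehicle (−0.69 to 0.021). The ratio of Nr4a3 to Nr4a1 with SR-3420 passed with a prior count of 2 (−0.93) and ranged from −1.18 to −0.46 with single samples left out, and that of Nr4a1 to Nr4a2 with ISO ranged from 1.55 to 1.75. The cause was not tested. The fit of only the groups compared gave no value for Nr4a3 in the 5 comparisons without ISO, where it did not pass the filter.

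Total counts alone lowered the median gene by 0.31 with ISO, 0.16 with SR-3420, 0.23 with ISO under inhibitors, 0.15 in ISO against SR-3420 and 0.13 in the same comparison under inhibitors. Called genes, 612 higher and 495 lower with ISO, became 339 and 1191. With SR-3420 482 and 288 became 335 and 501, with ISO under inhibitors 660 and 928 became 439 and 1436, in the ISO interaction 1807 and 2016 became 2071 and 1464, and in the SR-3420 interaction 1524 and 1797 became 1566 and 1242. In 44 of 50 list counts the number stayed within 1.5 times. The exceptions were the NR4A targets higher with ISO (2 in place of 4) and with ISO under inhibitors (1 in place of 3), the retinoid X receptors lower with SR-3420 (1 in place of 0) and in the ISO interaction (0 in place of 1), and other nuclear receptors higher with SR-3420 (1 in place of 2) and lower in the SR-3420 interaction (1 in place of 3). Of the 5 genes most like each member, Spearman's measure kept 2 for Nr4a1, 0 for Nr4a2 and 0 for Nr4a3, and 6 group means kept 1, 1 and 2.

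The replicate numbers are shared by all groups, but same-numbered samples deviated together only in part. Their mean correlations were −0.012, 0.15 and 0.19 for numbers 1 to 3, with a lowest of −0.11. Over all same-numbered pairs the mean was 0.11, against −0.055 for pairs of different number and group. Of the 18 samples, 12 correlated best with their own number. The permutation tests of ratios did not use the numbers. Adding a replicate block to the model changed no call of a member, with interactions of −2.56 (adjusted p = 1.04e-12) for Nr4a1 and ISO, −3.05 (adjusted p = 0.0292) for Nr4a3 and SR-3420, and 0.42 (adjusted p = 0.0943) for Nr4a2 and ISO. Depth limits Nr4a3 without ISO, where 3 counts stand for 0.157 to 0.799 CPM. All groups have 3 samples of 1 cell line at 1 time point, and the counted length of Nr4a3 holds its coding part only.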
